A study of Mus musculus with 12 samples.

Results

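The enzymes and regulators that build fatty acids from glucose carbon were followed in the aorta of male mice that lack apolipoprotein E, on a normal and a high-fat diet and with a bile acid added to the latter. The set held 10 genes, found by their symbols among the 22183 genes of the deposited table. They were Acly, Me1, Acaca, Acacb, Fasn, Elovl6, Scd1, Scd2, Srebf1 and Mlxipl, and all 10 passed the filter on low counts in every comparison. All mice had the ApoE-/- genotype, which leads to high blood cholesterol and arterial lesions, and were 8 weeks old at the start. The NFD group ate a diet of 5% fat with no cholesterol, and the HFD group a diet of 16% fat and 0.25% cholesterol. The HFD+TUDCA group ate the high-fat diet for 8 weeks and then also received 1000 mg/kg of tauroursodeoxycholic acid (TUDCA) by gavage each day for 4 weeks, while the NFD and HFD mice were given saline. This bile acid, conjugated with taurine, is in use as a chemical chaperone. Each group had 4 RNA sequencing libraries, from a study of 60 mice. The labels do not say whether a library came from 1 mouse or from a pool, so the p-values measure the spread between libraries. The tissue ran from the ascending aorta to the bifurcation.

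Fatty acid synthesis starts with citrate that leaves the mitochondrion. ATP-citrate lyase (Acly) splits it to give acetyl-CoA, acetyl-CoA carboxylase turns that into malonyl-CoA, and fatty acid synthase (Fasn) joins these units into palmitate. The synthase uses NADPH, part of which comes from malic enzyme (Me1). Elovl6 lengthens palmitate, and the stearoyl-CoA desaturases (Scd1, Scd2) add a double bond. SREBP-1, encoded by Srebf1, and ChREBP, encoded by Mlxipl, are transcription factors that raise these genes in response to insulin and to glucose. In mice the pathway is most active in liver and fat tissue, and fat in the diet is known to lower it in liver.

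Libraries held 15199312 to 22061687 counts, and 16532 to 17121 genes had at least 1 count. Log2 levels of libraries of the same group correlated across genes with r of 0.855 to 0.981. On the first principal components, the most distant libraries were HFD replicates 1 and 4 and replicate 4 of HFD+TUDCA. Mitochondrially encoded RNA made up 8.56% of counts in HFD replicate 4 and 19.2% in HFD+TUDCA replicate 4, the lowest and highest shares of the 12 libraries. Apoe, the targeted gene, was at 11.1 to 34.0 CPM (counts-per-million, scaled by the trimmed mean of M-values) over all libraries, and since every group shares the genotype it does not check the group labels. Smooth muscle markers were present, with a summed level of 1770 to 5194 CPM over 6 genes.

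The promoters shown here belong to members whose level was lower in every HFD library than in any NFD library and whose RefSeq start coincides with the GENCODE start of the gene. Each line gives the 250 bases before the start, 5′ to 3′ on the strand of the gene, from RefSeq on GRCm38.p6. Capitals mark matches on either strand to a CCAAT box (CCAAT), a GC box (GGGCGG), an E-box (CACGTG) or a sterol element (TCACNCCAC). The Acly window is chr11:100528001-100528250 on the minus strand, the Fasn window chr11:120824548-120824797 on the minus strand, and the Mlxipl window chr5:135089640-135089889 on the plus strand.
Acly: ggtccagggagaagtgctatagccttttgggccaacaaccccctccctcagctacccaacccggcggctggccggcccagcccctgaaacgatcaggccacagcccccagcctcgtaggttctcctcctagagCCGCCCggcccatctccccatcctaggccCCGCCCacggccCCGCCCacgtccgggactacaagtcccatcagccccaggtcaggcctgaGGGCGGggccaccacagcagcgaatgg
Fasn: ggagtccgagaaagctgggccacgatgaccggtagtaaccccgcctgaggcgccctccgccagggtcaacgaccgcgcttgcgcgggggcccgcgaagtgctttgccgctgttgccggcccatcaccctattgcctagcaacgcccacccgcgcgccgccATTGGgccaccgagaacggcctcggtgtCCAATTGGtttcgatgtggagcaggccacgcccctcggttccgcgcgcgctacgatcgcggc
Mlxipl: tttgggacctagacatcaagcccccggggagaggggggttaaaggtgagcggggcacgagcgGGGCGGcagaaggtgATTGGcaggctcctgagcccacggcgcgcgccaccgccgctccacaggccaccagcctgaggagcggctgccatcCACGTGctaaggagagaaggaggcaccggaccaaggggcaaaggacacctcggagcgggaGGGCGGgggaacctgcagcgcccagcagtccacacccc

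The Acly window held 4 GC boxes, at positions -117 to -112, -88 to -83, -76 to -71 and -27 to -22 from the start. The Fasn window held 3 CCAAT boxes, at -90 to -86, -62 to -58 and -59 to -55, of which the last pair overlaps. The Mlxipl window held an E-box at -98 to -93, a CCAAT box at -173 to -169, and GC boxes at -188 to -183 and -38 to -33. A second Mlxipl start, inside the gene, had a sterol element at -136 to -128. Among 32851 mouse promoters of the same length, 33.8% held a CCAAT box, 32.7% a GC box, 6.02% an E-box and 1.05% the sterol element. A match describes letters, and binding was not measured here. In all, 8 of the 10 members had an entry in the promoter table, and Scd1 and Scd2 are named only. Among the members not shown, the Acaca and Elovl6 windows held 0 matches, and those of Acacb, Me1 and Srebf1 held some. Acaca and Me1 were lower in every HFD library than in any NFD library, and Elovl6, Acacb and Srebf1 overlapped. A link between the motifs and the levels was not tested.

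On the high-fat diet, genes for the first steps of the pathway were at lower levels, and Scd1 and Scd2 overlapped between the diets. Acly, Acaca and Me1 fell 3.90-fold to 5.61-fold against the normal diet, whereas Scd1, the most abundant member, had a higher mean on the high-fat diet with overlapping libraries. Of the 10 members, 3 were called lower and 0 higher by edgeR's quasi-likelihood test at an adjusted p under 0.05. Over all 14918 genes tested, 1.64% were called lower. For 5 of 10 members, every HFD library was under every NFD library, against 6.82% of all genes tested. These were Acly, Me1, Acaca, Fasn and Mlxipl. The median log2 fold change was -0.84 over the 10 members and 0.04 over all genes tested. Without HFD replicates 1 and 4, which lay apart, 0 of 10 members passed the test. The log2 fold changes were then -2.52 for Acly, -1.78 for Acaca and -2.47 for Me1, with adjusted p of 0.0616, 0.0891 and 0.109, in a fit of 6 libraries that called 374 of all genes. In bulk tissue, fewer cells of a type and less RNA per cell cannot be told apart.

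**Figure D1:**
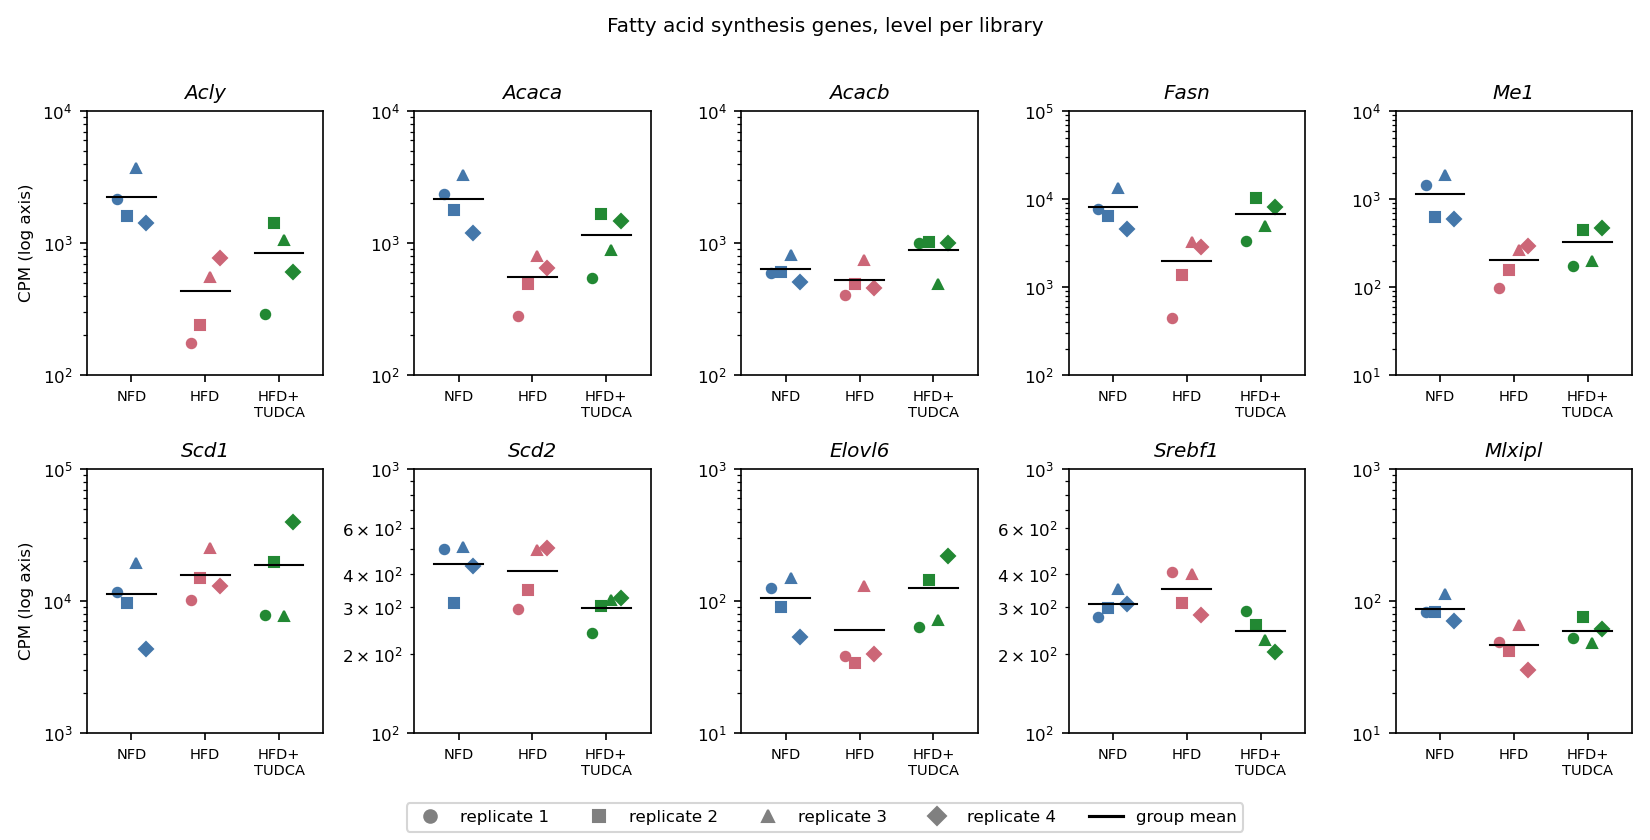
Level of each of the 10 fatty acid synthesis genes in every library, in CPM on a log axis, by group. Each point is a library, the symbol gives its replicate number, and the line is the mean of the 4 libraries. For Acly, Acaca, Fasn, Me1 and Mlxipl every HFD point lies below every NFD point, and for Scd1 the groups overlap.

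Acly and Me1 supply the carbon and the reducing power. Acly (chr11:100476353-100528000, minus strand) was at 2176, 1603, 3717 and 1427 CPM in NFD replicates 1 to 4. It was at 174, 240, 555 and 770 CPM in HFD and at 291, 1422, 1064 and 600 CPM in HFD+TUDCA. Every HFD library was below every NFD library, and the HFD+TUDCA libraries lay between 291 CPM, inside the HFD range, and 1422 CPM, just under the lowest NFD library. Acly fell by 2.36 ± 0.50 (SE) on the log2 scale in HFD against NFD, or 5.14-fold (adjusted p = 0.0310, edgeR's quasi-likelihood test). This call was kept in 3 of 8 fits that left out 1 library. The adjusted p rose to 0.0819, 0.0572, 0.0915 and 0.0565 when NFD replicates 1, 2, 3 and 4 in turn were left out and to 0.0572 when HFD replicate 1 was, with log2 fold changes of -2.82 to -2.04 over the 8 fits.

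Me1 (chr9:86581371-86695953, minus strand) was at 1434, 628, 1897 and 592 CPM in NFD, at 98.8, 155, 265 and 291 CPM in HFD, and at 173, 444, 199 and 471 CPM in HFD+TUDCA. Both high-fat groups stayed under the lowest NFD library, and the high-fat groups overlapped each other. Me1 fell by 2.49 ± 0.47 on the log2 scale in HFD against NFD, or 5.61-fold (adjusted p = 0.0196, edgeR's quasi-likelihood test), the largest fold change among the members. The call was kept in 6 of 8 fits, and the adjusted p was 0.0668 without NFD replicate 1 and 0.0615 without NFD replicate 3. Of the 50-base words in the Me1 transcript, 26.5% also occur in other genes, most of all in the annotated gene Gm7049. That gene was not analysed here, so part of the Me1 count is uncertain. The deposited Me1 counts were whole numbers in every library.

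Acetyl-CoA carboxylase exists in a cytosolic form, Acaca, whose malonyl-CoA feeds synthesis, and a mitochondrial form, Acacb, whose malonyl-CoA restrains fatty acid oxidation. Acaca (chr11:84129672-84401651, plus strand) was at 2361, 1779, 3313 and 1194 CPM in NFD, at 281, 491, 795 and 652 CPM in HFD, and at 548, 1651, 894 and 1485 CPM in HFD+TUDCA. The HFD libraries were all under the NFD libraries, while the HFD+TUDCA libraries overlapped both groups. Acaca fell by 1.96 ± 0.38 on the log2 scale in HFD against NFD, or 3.90-fold (adjusted p = 0.0203, edgeR's quasi-likelihood test). The call was kept in 6 of 8 fits that left out 1 library, and the adjusted p was 0.0682 without NFD replicate 1 and 0.0681 without NFD replicate 3. Of the 50-base words in the Acaca transcript, 52.6% also occur in other genes, most of all in the annotated gene Gm5182, not analysed here. The deposited Acaca counts were whole numbers in every library.

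Acacb (chr5:114146535-114250761, plus strand) was at 599, 609, 817 and 510 CPM in NFD, at 402, 488, 750 and 461 CPM in HFD, and at 1011, 1022, 489 and 1010 CPM in HFD+TUDCA. The NFD and HFD libraries overlapped, and 3 of 4 HFD+TUDCA libraries were above every other library. The log2 fold change in HFD against NFD was -0.27 ± 0.22 (adjusted p = 0.550, edgeR's quasi-likelihood test). The ratio of the 2 carboxylases, taken from FPKM (fragments-per-kilobase-per-million, which allows genes to be compared), did not overlap between the diets. Acaca over Acacb was 2.86 to 4.79 in NFD, 0.779 to 1.69 in HFD and 0.716 to 2.16 in HFD+TUDCA. The cytosolic form was thus the more abundant in every NFD library, and Acacb was the more abundant in 1 HFD library (replicate 1) and 1 HFD+TUDCA library (replicate 1).

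Fasn (chr11:120805846-120824547, minus strand), the synthase itself, was at 7780, 6384, 13476 and 4614 CPM in NFD, at 443, 1375, 3223 and 2887 CPM in HFD, and at 3353, 10425, 4894 and 8131 CPM in HFD+TUDCA. The HFD libraries were below all libraries of both other groups, and the NFD and HFD+TUDCA libraries overlapped. The log2 fold change in HFD against NFD was -2.03 ± 0.57, as large as that of Acaca but with a wider spread, and it did not pass the test (adjusted p = 0.0797, edgeR's quasi-likelihood test).

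Elovl6 (chr3:129532355-129638495, plus strand) was at 126, 89.5, 150.2 and 53.4 CPM in NFD, at 38.4, 34.0, 130.5 and 39.9 CPM in HFD, and at 64.0, 145, 71.4 and 218 CPM in HFD+TUDCA. In HFD, 3 of 4 libraries were under the NFD range and replicate 3 was inside it. The log2 fold change was -0.79 ± 0.48 (adjusted p = 0.392, edgeR's quasi-likelihood test). Without HFD replicate 3 it was -1.49 and passed the test (adjusted p = 0.0312).

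Scd1 (chr19:44394455-44407879, minus strand) was at 11735, 9668, 19510 and 4318 CPM in NFD, at 10227, 14940, 25340 and 13034 CPM in HFD, and at 7793, 19648, 7698 and 40048 CPM in HFD+TUDCA. The 3 groups overlapped. Its log2 fold change in HFD against NFD was 0.49 ± 0.44 (adjusted p = 0.581, edgeR's quasi-likelihood test). In HFD+TUDCA replicate 4, 1 of the libraries that lay apart, Scd1 alone took 3.58% of all counts. Scd2 (chr19:44293674-44306864, plus strand), a second desaturase, was at 311 to 509 CPM in NFD, 296 to 503 CPM in HFD and 240 to 325 CPM in HFD+TUDCA. Its log2 fold change in HFD against NFD was -0.09 ± 0.22, with adjusted p = 0.866 by the same test. The Scd1 and Scd2 counts were not whole numbers in any of the 12 libraries, and 4.66% of the Scd1 words and 4.01% of the Scd2 words of 50 bases occur in another gene.

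The ratios of Scd1 to Fasn and to Acly separated the diets, while the level of Scd1 itself overlapped. Fasn and Acly were each lower in every HFD library than in any NFD library. Scd1 over Fasn, in FPKM, was 2.71, 2.72, 2.60 and 1.69 in NFD and 41.7, 19.5, 14.2 and 8.15 in HFD, and it was 4.19, 3.41, 2.84 and 8.86 in HFD+TUDCA. The ratio was higher in both high-fat groups than in any NFD library. Scd1 over Acly was 2.74 to 5.40 in NFD, 15.3 to 55.8 in HFD and 6.51 to 59.8 in HFD+TUDCA, again with no overlap with NFD. Scd1 over Scd2 did overlap, at 11.4 to 43.3 in NFD, 29.3 to 57.9 in HFD and 27.2 to 138 in HFD+TUDCA. Fasn over Acaca was 2.77 to 3.31 in NFD, 1.22 to 3.62 in HFD and 4.27 to 5.18 in HFD+TUDCA, so the HFD+TUDCA libraries had more Fasn per Acaca than any library of the other groups. These ratios were chosen with the levels known and were not tested. As a sum, the 10 members took 1.41% to 4.41% of all counts in NFD, 1.33% to 2.95% in HFD and 1.35% to 4.70% in HFD+TUDCA.

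The transcription factor genes had smaller fold changes than Acly, Me1, Acaca and Fasn. Mlxipl (chr5:135089890-135138382, plus strand) was at 82.0, 82.8, 113 and 71.1 CPM in NFD, at 49.1, 41.8, 66.1 and 30.0 CPM in HFD, and at 52.2, 75.7, 48.4 and 61.2 CPM in HFD+TUDCA. The NFD and HFD libraries did not overlap, and the log2 fold change of -0.89 ± 0.24 missed the threshold (adjusted p = 0.0675, edgeR's quasi-likelihood test). Srebf1 (chr11:60199089-60222581, minus strand) was at 276, 298, 351 and 309 CPM in NFD, at 407, 311, 402 and 280 CPM in HFD, and at 290.5, 256, 225 and 203 CPM in HFD+TUDCA. Its HFD and NFD libraries overlapped, with a log2 fold change of 0.19 ± 0.17 (adjusted p = 0.581, edgeR's quasi-likelihood test). The gene-level counts do not separate the isoforms of Srebf1 or Mlxipl.

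Per length, Scd1 had the highest mean level in each group, at 2430 FPKM in NFD, 3213 FPKM in HFD and 3636 FPKM in HFD+TUDCA, and Mlxipl and Elovl6 the lowest. In NFD the order went on with Fasn (963 FPKM), Acly (534), Me1 (359), Acaca (317), Scd2 (83.6), Srebf1 (82.4), Acacb (79.2), Mlxipl (31.8) and Elovl6 (19.2). Neighbours in that order did not overlap at only 3 places, Acaca over Scd2, Acacb over Mlxipl and Mlxipl over Elovl6. In HFD, Scd1 stood clear of Fasn (218 FPKM), and Acly (96.5), Srebf1 (89.0), Acaca (79.6), Scd2 (73.6), Acacb (62.9) and Me1 (59.7) followed with overlapping neighbours. Me1 was the fourth most abundant member in NFD and the eighth in HFD.

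Adipoq encodes adiponectin, a hormone made by fat cells, and Ucp1 the uncoupling protein of brown fat. Adipoq was at 719, 1050.0, 794 and 958 CPM in NFD, at 802, 899.6, 834 and 649 CPM in HFD, and at 1360.4, 934, 557 and 725 CPM in HFD+TUDCA. The 3 groups overlapped, and its log2 fold change in HFD against NFD was -0.14 ± 0.19 (adjusted p = 0.729, edgeR's quasi-likelihood test). Relative to Adipoq, 4 of 10 members (Acly, Acaca, Fasn and Me1) were lower in every HFD library than in any NFD library, against 2.61% of all genes tested. Acly over Adipoq ranged from 1.49 to 4.68 on the normal diet and from 0.217 to 1.19 in HFD, and Fasn over Adipoq from 4.82 to 17.0 and from 0.552 to 4.45. With the log2 level of Adipoq as a covariate, Acly, Acaca and Me1 stayed called lower.

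Ucp1 was at 1907, 2274, 1991 and 3053 CPM in NFD, at 308, 474, 1732 and 1760 CPM in HFD, and at 3507, 3740, 2030 and 4939 CPM in HFD+TUDCA. It was lower in every HFD library than in any other library, and its log2 fold change in HFD against NFD was -1.12 ± 0.52 (adjusted p = 0.262, edgeR's quasi-likelihood test). Relative to Ucp1, 0 of 10 members were lower in HFD without overlap, against 0.127% of all genes tested, and 1 (Scd2) was higher, against 33%. With Ucp1 as a covariate, 0 of 10 members passed the test, and the log2 fold changes of Acly, Acaca and Me1 were -1.69, -1.58 and -2.06 with adjusted p of 0.157, 0.158 and 0.143. That fit called 164 of all genes changed, against 720 without the covariate. Because Ucp1 did not overlap between the diets, it cannot separate the level of Ucp1 from the diet.

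**Figure D2:**
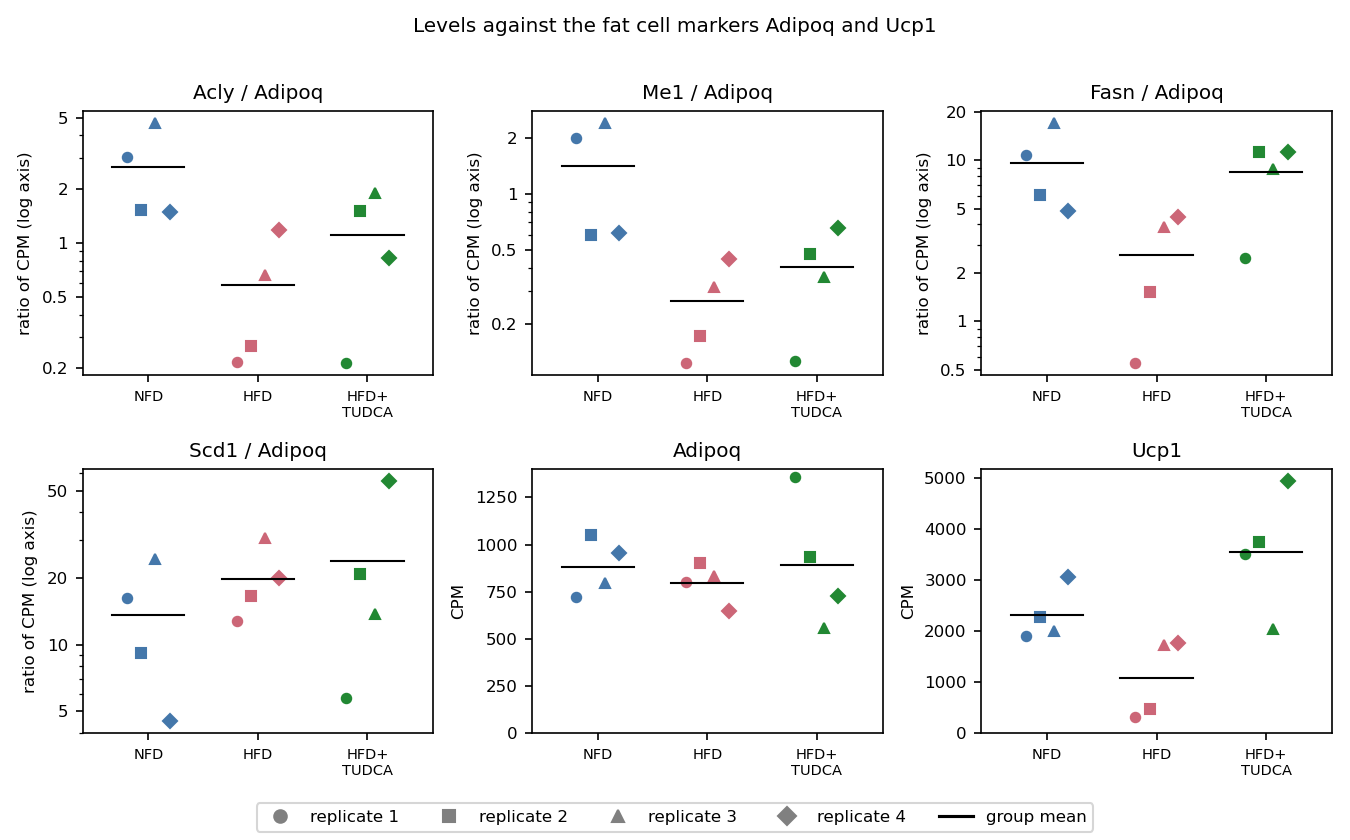
Ratio of Acly, Me1, Fasn and Scd1 to Adipoq in each library (log axis), and the CPM of Adipoq and Ucp1 (linear axes from 0), by group. Points are libraries and lines are means of 4. The HFD ratios for Acly, Me1 and Fasn lie below the NFD ratios, Adipoq overlaps between the groups, and Ucp1 is lowest in HFD.

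Over the whole list of 10 white fat cell markers, 1 was called lower in HFD, against 1.64% of all genes tested. This was Retn (log2 fold change -1.26 ± 0.21, adjusted p = 0.0134 by edgeR's quasi-likelihood test). The median over the 10 markers was -0.38. Their summed level was 10595 to 14738 CPM in NFD, 7926 to 10841 CPM in HFD and 6996 to 15397 CPM in HFD+TUDCA. The mean log2 CPM of these markers lay between 8.87 and 9.20 in NFD and between 7.89 and 8.66 in HFD, without overlap. With that mean as a covariate, which cannot be separated from the diet as the groups did not overlap, 0 of 10 members passed the test. Over all genes, 1 of 14918 did. The log2 fold changes of Acly, Acaca and Me1 were then -3.66, -2.30 and -3.38, larger in size than without the covariate, with adjusted p of 0.142, 0.277 and 0.153. Of 9 brown fat cell markers tested, 0 were called (median -0.16), and all 10 of the list had summed levels of 3111 to 4770 CPM in NFD, 995 to 3961 CPM in HFD and 3472 to 7840 CPM in HFD+TUDCA. With the brown fat mean as a covariate, Acly and Acaca passed the test and Me1 had adjusted p = 0.0510.

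Other cell type markers moved with the diet as well. Of 6 macrophage markers, 4 were called higher in HFD than in NFD (Cd68, Itgam, Adgre1 and Lyz2), where 3.18% of all genes were called higher, and they summed to 1827 to 3143 CPM over the NFD libraries and to 4409 to 5258 CPM over the HFD libraries. Over all genes tested, 1.64% were called lower. Of 8 heart muscle markers, 2 (Tnnt2 and Myh6) were called lower, with sums of 3682 to 9930 CPM in NFD and 378 to 2882 CPM in HFD. Of 3 liver markers tested, 2 (Alb and Apoa1) were called lower, and all 6 markers of the list had sums of 9.55 to 51.8 CPM in NFD and 0.490 to 4.55 CPM in HFD. The airway epithelium markers summed to 1044 to 2100 CPM in NFD and 2.75 to 883 CPM in HFD, with 0 of 6 called. Of the smooth muscle markers 1 of 6 was called lower, and of the fibroblast, endothelium, Schwann cell and adrenal cortex markers none was called in this comparison. The adrenal cortex markers varied widely between libraries. They summed to 7.78 to 5551 CPM in NFD, 5.75 to 3752 CPM in HFD and 4.11 to 9.01 CPM in HFD+TUDCA. The part of these cell types in the levels of the 10 members was not tested.

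Some genes that feed the pathway were lower as well. Of 12 genes for citrate, acetate and NADPH supply, 3 were called lower in HFD than in NFD and 0 higher, where 1.64% of all genes were called lower. Their median log2 fold change was -0.60, and 7 of 12 were lower without overlap, against 6.82% of all genes tested. Slc25a1, the carrier that exports citrate from the mitochondrion, was at 464 to 1158 CPM in NFD and 130.2 to 339 CPM in HFD and fell by 1.91 ± 0.34 on the log2 scale (adjusted p = 0.0164, edgeR's quasi-likelihood test). Acss2, which makes acetyl-CoA from acetate, was at 128 to 378 CPM in NFD and 38.9 to 88.6 CPM in HFD and fell by 1.86 ± 0.36 (adjusted p = 0.0210 by the same test). Pcx, pyruvate carboxylase, was at 1016 to 1579 CPM in NFD and 366 to 610 CPM in HFD and fell by 1.20 ± 0.21 (adjusted p = 0.0152 by that test). Pgd, an NADPH-producing enzyme of the pentose phosphate pathway, had a log2 fold change of -0.95 ± 0.23 and lay at the threshold (adjusted p = 0.0503).

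Among 8 genes of triglyceride assembly, 2 were called lower in HFD (median -0.85), against 1.64% of all genes tested. Pnpla3, a lipid droplet protein and a target of SREBP-1 and ChREBP, was at 43.3 to 82.4 CPM in NFD and 9.18 to 24.9 CPM in HFD and fell by 2.00 ± 0.33 on the log2 scale (adjusted p = 0.0124, edgeR's quasi-likelihood test). Lpin1, a phosphatidate phosphatase, fell by 1.04 ± 0.22 (adjusted p = 0.0277 by the same test). Among 7 genes of the insulin response, 2 were called lower (median -0.08), against the same 1.64%. These were Irs1, an adaptor of the insulin receptor, with a fall of 1.05 ± 0.20 (adjusted p = 0.0203), and Slc2a4, the insulin-regulated glucose transporter, with a fall of 1.01 ± 0.23 (adjusted p = 0.0373).

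In the other lists, 0 of 47 genes were called in this comparison by edgeR's quasi-likelihood test. Of the 47, 11 had an unadjusted p under 0.05, against 3126 of all 14918 genes tested. These lists covered 8 regulators of acetyl-CoA carboxylase and malonyl-CoA (median -0.23), 11 other elongases and desaturases (-0.47), 14 genes of SREBP processing and its partners (-0.03), 8 genes of lipolysis and fatty acid uptake (-0.06) and 6 genes of mitochondrial fatty acid synthesis (-0.28). Thrsp, a nuclear protein that accompanies lipid synthesis, was at 1733 to 2102 CPM in NFD and 216 to 1135 CPM in HFD, without overlap (log2 fold change -1.52 ± 0.40, adjusted p = 0.0612, edgeR's quasi-likelihood test). Tecr, which acts in the elongation cycle, had -0.85 ± 0.22 (adjusted p = 0.0620), and Insig1, which holds SREBP in the endoplasmic reticulum, had -0.81 ± 0.32 (adjusted p = 0.182). Nr1h3, the LXR alpha receptor, which raises Srebf1 in mouse liver, had 0.33 ± 0.15 (adjusted p = 0.231).

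**Figure D3:**
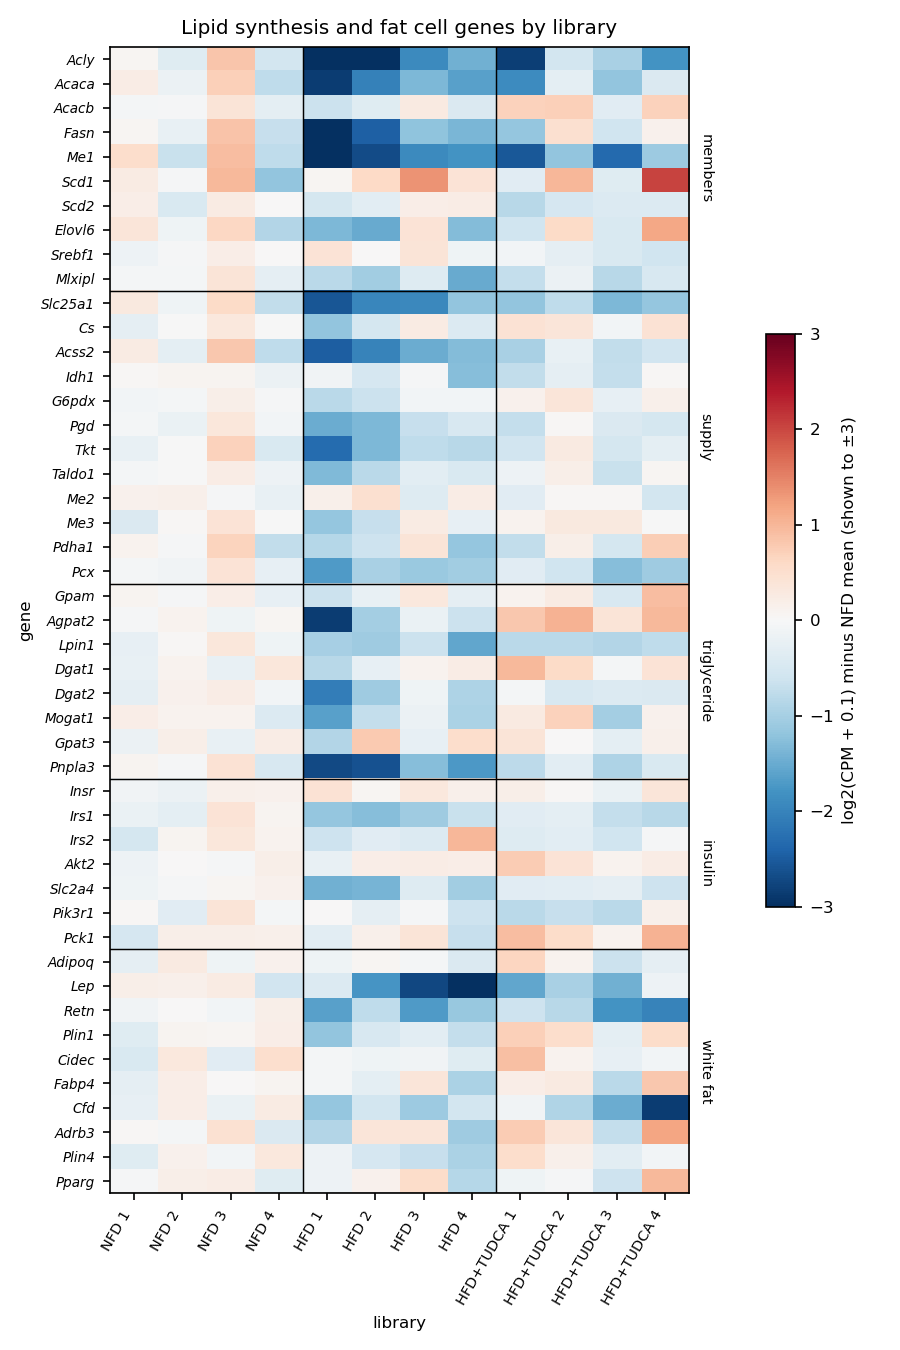
Level of the members and of supply, triglyceride, insulin response and white fat genes in each library, as log2(CPM + 0.1) minus the NFD mean, with colours limited to 3 in either direction. Blue fields are below the NFD mean. Acly, Acaca, Fasn, Me1, Slc25a1, Acss2 and Pnpla3 are blue in all 4 HFD libraries, and Scd1 is above the NFD mean there.

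With TUDCA on the high-fat diet, the mean levels of 8 of 10 members were higher than with the high-fat diet alone, but 0 of 10 passed the test. By edgeR's unadjusted p, 4 of 10 were under 0.05, and DESeq2 called 0 of 10. Over all 14587 genes tested, 0% were called changed by edgeR's quasi-likelihood test, 1745 had an unadjusted p under 0.05, and DESeq2 called 335. The groups did not overlap for 1 of 10 members, Fasn, which was higher in every HFD+TUDCA library than in any HFD library, against 2.75% of all genes tested that were higher without overlap. Its log2 fold change was 1.79 ± 0.61 (adjusted p = 0.332, edgeR's quasi-likelihood test; adjusted p = 0.0513 by DESeq2). The median was 0.74 over the 10 members and 0.00 over all genes tested. The next largest values were 1.08 ± 0.41 for Acaca, 1.07 ± 0.55 for Elovl6, 0.99 ± 0.57 for Acly, 0.78 ± 0.30 for Acacb and 0.71 ± 0.43 for Me1, with adjusted p of 0.363 to 0.546. Without the 3 libraries that lay apart, Fasn had 1.42 (adjusted p = 0.450) and 0 members passed the test. Srebf1 and Scd2 had lower means, at -0.50 ± 0.20 for Srebf1 (adjusted p = 0.376) and -0.43 ± 0.21 for Scd2 (adjusted p = 0.463) on the log2 scale.

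The brown fat marker Ucp1 was higher in every HFD+TUDCA library than in any HFD library, with a log2 fold change of 1.78 ± 0.58 (adjusted p = 0.322, edgeR's quasi-likelihood test), close to that of Fasn. Adipoq had 0.19 ± 0.28 (adjusted p = 0.814). Relative to Adipoq, all 10 members overlapped between HFD+TUDCA and HFD, where 0.411% of all genes tested were higher and 1.27% lower without overlap. Relative to Ucp1, 3 of 10 members (Me1, Scd2 and Srebf1) were lower in HFD+TUDCA without overlap, against 48.8% of all genes tested, and 0 were higher, as for all genes (0%). With Ucp1 as a covariate, the log2 fold changes were 0.27 for Fasn, 0.15 for Acaca and 0.11 for Acly, and with the brown fat mean 0.98, 0.52 and 0.68. With Adipoq as a covariate they were 1.86, 1.12 and 1.14. Because Ucp1 did not overlap between these groups, the fit with Ucp1 cannot separate its level from the treatment. In the Ucp1 fit, 631 of all genes had an edgeR unadjusted p under 0.05, against 1745 without a covariate. The macrophage markers summed to 1082 to 3403 CPM in HFD+TUDCA, below every HFD library. Heart muscle markers summed to 53.0 to 10770 CPM over the HFD+TUDCA libraries, and airway epithelium markers to 0.913 to 1107 CPM. Both ranges overlapped those of HFD. The part of these cells in the difference was not tested.

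Among the other lists, 0 of 74 genes were called in HFD+TUDCA against HFD by edgeR's quasi-likelihood test. Of the 74, 22 had an unadjusted p under 0.05, against 1745 of all 14587 genes tested. The medians were 0.58 for supply, 0.64 for triglyceride assembly, 0.57 for mitochondrial synthesis, 0.51 for lipolysis and uptake, 0.35 for the carboxylase regulators, 0.32 for the insulin response, 0.20 for SREBP processing and 0.16 for the other elongases and desaturases. In these lists, 6 genes were higher in every HFD+TUDCA library than in any HFD library, as were 2.75% of all genes tested. They were Acss2, Tkt, Pnpla3, Agpat2, Elovl3 and Mid1ip1, with log2 fold changes of 1.17 ± 0.27, 0.99 ± 0.35, 1.39 ± 0.33, 1.76 ± 0.47, 2.33 ± 0.63 and 0.20 ± 0.14 and adjusted p of 0.218 to 0.577 by edgeR's quasi-likelihood test. Insig1 had 1.72 ± 0.46 (adjusted p = 0.268) with overlapping groups.

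Compared with the normal diet, the HFD+TUDCA group had 0 of 10 members called by edgeR's quasi-likelihood test, where 0.194% of 14942 genes tested were called changed. The unadjusted p of that test was under 0.05 for 6 of 10 members, against 1711 of all 14942 genes. This comparison shares its libraries with those above. Me1 and Acly, 2 of 10 members, were lower in every HFD+TUDCA library than in any NFD library, against 3.45% of all genes. The log2 fold change was -1.82 ± 0.49 for Me1 (adjusted p = 0.179, edgeR's quasi-likelihood test) and -1.40 ± 0.49 for Acly (adjusted p = 0.300). DESeq2 called both, with adjusted p of 0.00285 and 0.0497. Acaca had -0.92 ± 0.40 (adjusted p = 0.429), Mlxipl -0.56 ± 0.19 (adjusted p = 0.277), Scd2 -0.56 ± 0.18 (adjusted p = 0.255), Srebf1 -0.34 ± 0.14 (adjusted p = 0.405) and Fasn -0.27 ± 0.42 (adjusted p = 0.882). Acacb, Scd1 and Elovl6 had higher means, at 0.48 ± 0.26, 0.73 ± 0.62 and 0.25 ± 0.44, and the median over the members was -0.45.

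**Figure D4:**
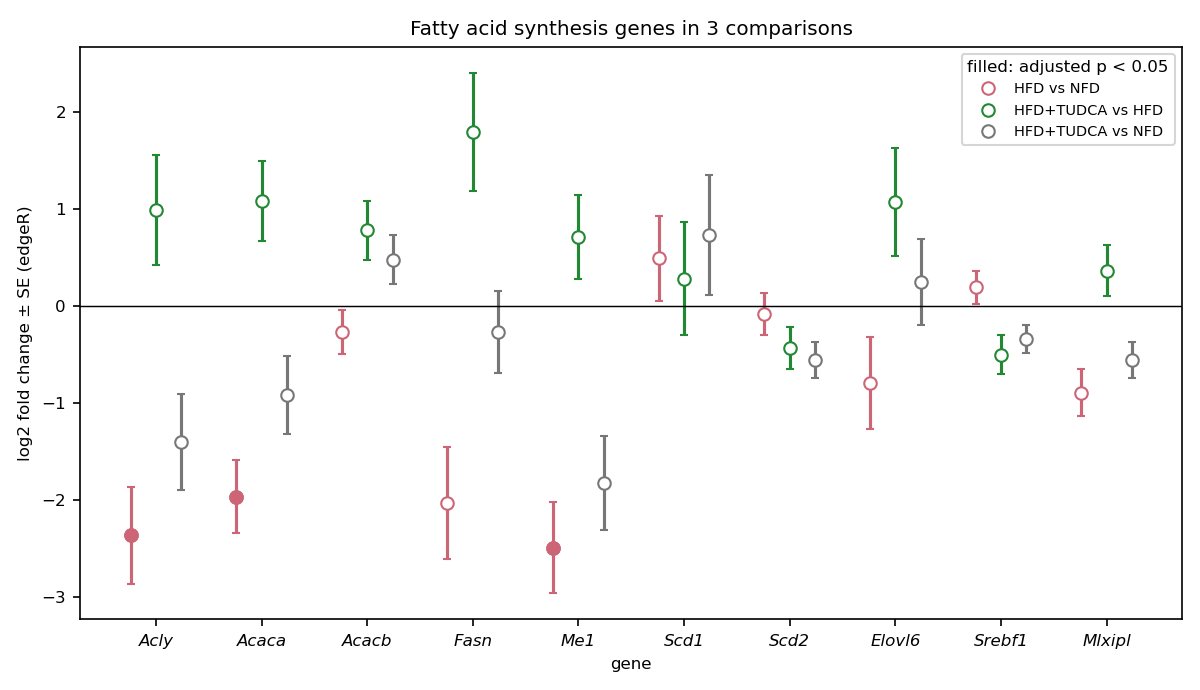
Log2 fold change with its SE (edgeR) of the 10 members in HFD against NFD, HFD+TUDCA against HFD and HFD+TUDCA against NFD. Filled circles have an adjusted p under 0.05, which holds for Acly, Acaca and Me1 in HFD against NFD and for no other value. The comparisons share libraries, so their values are not independent of each other.

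The 1 gene of the other pathway lists that passed the test in HFD+TUDCA against NFD was Elovl3, an elongase of very long chain fatty acids that is abundant in brown fat. It was at 7.83, 10.6, 4.52 and 13.3 CPM in NFD, at 11.3, 16.0, 76.8 and 48.7 CPM in HFD, and at 131, 238, 96.5 and 283 CPM in HFD+TUDCA. Every HFD+TUDCA library was above every other library, and 3 of 4 HFD libraries were above the NFD range. Elovl3 rose by 4.37 ± 0.46 on the log2 scale, or 20.6-fold, against NFD (adjusted p = 0.00971, edgeR's quasi-likelihood test).

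Across the 12 libraries the members did not all vary together. The correlation of a member's log2 CPM with the mean of the others, a description over 12 libraries that share the group differences, was highest for Acaca (r = 0.901), Me1 (0.867), Fasn (0.802), Elovl6 (0.800), Mlxipl (0.777) and Acly (0.758). It was lower for Acacb (0.469), Scd2 (0.370) and Scd1 (0.310), and negative for Srebf1 (-0.22). Of 15194 genes, those whose log2 CPM followed the mean of the 10 members most closely included Gbe1 (r = 0.948), Pdhb (0.930), Eno1 (0.910), Tmem179 (0.907), Ppp1r3b (0.904), Mrps22 (0.903), Tyw3 (0.901), Adcy10 (0.900) and Ntrk3 (0.890). Acss2 was at rank 17 (r = 0.863), Ucp1 at rank 934 (r = 0.558) and Adipoq at rank 8408 (r = -0.04).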

How the data were processed

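Per the labels' protocols, Trizol RNA of mouse aorta went through oligo(dT) enrichment into the NEBNext Ultra kit. Per the file headers, the authors deposited a count and an FPKM value per gene and library in 1 table of 12 libraries, on GRCm38 per the submitters' processing notes. The name of the aligner or counter is not given in the sources used here. The values deposited as counts were taken for expected counts, since 8.53% to 9.43% of a library's values were not whole, and were rounded. RNA without a poly(A) tail is not measured, and counts of genes with near copies are uncertain.

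Each comparison was fitted to all genes with edgeR 4.0.16 in R 4.3.3 (quasi-likelihood test, robust, TMM) on the 8 libraries of its groups, after filterByExpr with a minimum count of 10, with Benjamini-Hochberg adjustment and a threshold of 0.05. The SE is the size of the log2 fold change over the square root of F. Alternatives used DESeq2 1.42.0 and limma 3.58.1 on log2(FPKM + 1) and log2(FPKM + 0.1). Coordinates are those of GENCODE M21. Tables and figures used Python 3.11.15, pandas 2.3.3 and matplotlib 3.10.9. A count of 0 allows up to 0.136 to 0.197 CPM, for counting error only.

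The members and the gene lists were chosen with earlier results of these data known. Named are the 10 members, Adipoq and Ucp1, up to 4 genes of a list with the lowest p in HFD against NFD and those that passed a test, and the 10 genes most like the mean of the members. Some of these are given as counts only, a gene that the rule names is not reported here, and some genes were named for their groups not overlapping, after their values were seen.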

Additional observations from a re-analysis of the deposited data

Results flagged for a closer look

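In 36 sets of 4 libraries (the 10 members, Adipoq and Ucp1 in each group), 2 had a library far from the other 3 by Dixon's criterion at the 95% level. Chance flags about 1 in 20 such sets. Acacb was at 489 CPM in HFD+TUDCA replicate 3, against 1010 to 1022 CPM in the other HFD+TUDCA libraries. Elovl6 was at 130.5 CPM in HFD replicate 3, and HFD replicates 1, 2 and 4 were at 34.0 to 39.9 CPM.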

How the results depend on the processing

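The count of members changed in HFD against NFD, 3 in the reported test, was 5 with DESeq2 (Fasn and Mlxipl added) and 0 with the white fat mean as a covariate, with Ucp1 as a covariate and without the libraries that lay apart, where the white fat covariate gave larger folds (Acly -3.66, Acaca -2.30). It ranged from 0 to 5 when each library was left out (0 without NFD replicate 1 and without NFD replicate 3, 5 without HFD replicate 3). The replicate block gave 4 (Mlxipl added). The deviations of same-numbered libraries had r of 0.0930, 0.390, 0.223 and 0.265 in HFD against NFD, all positive, and -0.47 to -0.23 in HFD+TUDCA against HFD. As 1 of the 4 was under 0.1 and the labels name no shared source, the numbers were not taken to pair the libraries. In HFD+TUDCA against NFD the count of 0 became 2 with DESeq2, and in HFD+TUDCA against HFD it was 0 under every alternative run. Over all genes, HFD+TUDCA against HFD had 0 genes called, 335 with DESeq2 and 115 in a fit of all 12 libraries. The covariates Adipoq and Ucp1 and the libraries left out together were alternatives chosen after seeing the data.

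Of the single-gene values under alternatives, 614 kept direction and call, 19 lost the call, 7 gained it and 20 changed sign, all of the last in values that did not pass the test. In HFD against NFD, Scd2 was 0.0594 with the brown fat covariate and 0.22 with Ucp1, and -0.23 to 0.0321 when libraries were left out. In HFD+TUDCA against HFD, Me1 was -0.0236 (brown fat) and -0.49 (Ucp1), Elovl6 was -0.20 (Ucp1), and Scd1 was -0.0557 on log2(FPKM + 1), -0.0558 on log2(FPKM + 0.1), -0.0877 (white fat), -0.67 (brown fat), -0.93 (Ucp1), -0.79 without the libraries that lay apart and -0.40 to 0.57 when libraries were left out. In HFD+TUDCA against NFD, Fasn ranged from -0.56 to 0.11, Scd1 was -0.21 (brown fat) and -0.17 (Ucp1), and Elovl6 was -0.28 (brown fat), -0.21 (Ucp1), -0.19 without HFD+TUDCA replicate 4, and -0.19 to 0.50 when libraries were left out. The cause was not tested.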
